A study of Mus musculus with 18 samples.

Results

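The immunity-related GTPases (IRGs) were described in B16F10 melanomas from a study of a ribozyme against PD-L1 mRNA, given free or in a carrier. Other tumors of the study received vehicle, an empty carrier or an inactive ribozyme. The genes were taken by symbol: Irgm1, Irgm2, Igtp, Iigp1, Tgtp1 and Tgtp2. All 6 were found, 1 row each, among the 41079 genes of the expression table, and all 6 were among the 12357 that averaged 1 FPKM or more, the set on which every test was run. FPKM is a level per length: the fragments of a gene divided by its length and by the fragments of the whole library.

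IRGs are GTP-binding proteins that mouse cells make in response to interferons, above all interferon gamma, and that defend cells against microbes living inside membrane-bound vacuoles. Members of the effector class, such as Iigp1 and the pair Tgtp1 and Tgtp2, load onto the vacuole and disrupt it. Members of the regulatory class, Irgm1, Irgm2 and Igtp, sit on the cell's own membranes and keep the effectors in an inactive form there. Promoters of interferon-induced genes are known for a pair of elements, the gamma-activated site (GAS) and the interferon-stimulated response element (ISRE), and interferon regulatory factors bind the latter.

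B16F10, a mouse melanoma cell line, was implanted under the skin of female C57BL/6 mice, an inbred strain with a working immune system. The study asked how gene expression in tumors differs between ways of delivering the ribozyme. All 18 tumors, in 6 groups of 3, grew from this line. Each received injections into its mass at intervals of 2 days that began on day 6, at about 50 mm3, and was collected 48 h after the last of them. PBS tumors received vehicle, and Free PS473 tumors the active ribozyme without a carrier. In PS473@CPs, cationic polymers carried it. NKMOF-101-[Mn] is a manganese metal-organic framework, given empty in the group of that name, loaded with an inactive ribozyme in M5@NKMOF-101-[Mn] and with the active one in PS473@NKMOF-101-[Mn]. The titles of the last group write NKMOF-102 while the treatment text names PS473@NKMOF-101-[Mn] alone, and the group is called by the latter here. The age of the mice is not given in the sources used here, and nothing states whether tumors shared a cage or a day, so p-values measure the spread between these tumors.

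The classes are named after a stretch of coding sequence, the loop that holds the phosphates of GTP. It is shown because it separates the members by role: the codon in capitals reads ATG in the regulatory class (GMS) and AAG in the effector class (GKS). In Irgm1, Irgm2 and Igtp the 24 bases were identical, and in Tgtp1 and Tgtp2 they were identical to each other.
GMS members: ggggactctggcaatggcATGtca
GKS members: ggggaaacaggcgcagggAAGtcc
These stretches lie at chr11:48866761-48866784 (minus strand, exon 3 of Irgm1), chr11:58219695-58219718 (plus strand, exon 3 of Irgm2), chr11:58206275-58206298 (plus strand, exon 3 of Igtp), chr11:48987667-48987690 (minus strand, exon 2 of Tgtp1) and chr11:49059534-49059557 (minus strand, exon 2 of Tgtp2) of GRCm38. That build was used for sequences only, since the submitters' processing notes list GRCm39. Iigp1 has the GKS codon at the same place, and its sequence is not shown.

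The genes lie in separate neighborhoods. In GRCm38, Irgm1 (48861968 to 48871683), Tgtp1 (48985327 to 48994172) and Tgtp2 (49057194 to 49064206) are on the minus strand of chromosome 11. Igtp (58199556 to 58207591) and Irgm2 (58199618 to 58222782) are on its plus strand, where the annotated gene bodies overlap. Coding sequences of Tgtp1 and Tgtp2 had 1241 of 1245 aligned bases in common (99.7%), and their transcripts 99.3%, so a fragment from one can often not be told from a fragment of the other. The other pairs of members shared between 50.6% and 67.9% of aligned coding bases.

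The RefSeq promoter table (GRCm38.p6, 250 bases before to 50 bases after the start of a gene) held 5 of the 6 members, all but Iigp1. ISRE letters (GAAANNGAAA, searched on both strands) were found in all 5, and GAS letters (TTCNNNGAA, which read the same on both strands) in 4, all but Irgm1. The stretches below are shown because the motifs, in capitals, stand in 1 arrangement in 4 members: GAS letters, 2 further bases, then ISRE letters.
Irgm2: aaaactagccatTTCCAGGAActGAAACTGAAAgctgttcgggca
Igtp: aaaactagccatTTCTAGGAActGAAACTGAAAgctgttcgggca
Tgtp1: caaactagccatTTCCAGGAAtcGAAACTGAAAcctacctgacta
Tgtp2: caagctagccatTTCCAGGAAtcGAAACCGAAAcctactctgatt
Irgm1: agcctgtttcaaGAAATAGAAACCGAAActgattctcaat
The capitals of Irgm1 are a pair of ISRE matches that overlap. The stretches are chr11:58214890-58214934 (plus strand, Irgm2), chr11:58199499-58199543 (plus strand, Igtp), chr11:48992302-48992346 (minus strand, Tgtp1), chr11:49064261-49064305 (minus strand, Tgtp2) and chr11:48871423-48871462 (minus strand, Irgm1). The starts in the promoter table are not all those of the gene bodies above: that of Irgm2 lies 15359 bases, that of Tgtp1 1926 bases and that of Irgm1 263 bases downstream of the start of the gene body, while that of Igtp is the same.

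Over 32851 promoters of the same length, 3.44% held the ISRE letters and 8.30% the GAS letters. Both were in 0.454%. The arrangement of the GAS letters 2 bases before the ISRE letters was in 5 promoters (0.0152%): Igtp, Irgm2, Tgtp1, Tgtp2 and Gm12185, a predicted gene of the same family. These promoters resemble each other over the bases around the motifs too, so they do not count as independent matches. A match is a description of letters, not of a bound site, and the absence of GAS letters in the Irgm1 window says only that these letters are not in it.

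**Figure D1:**
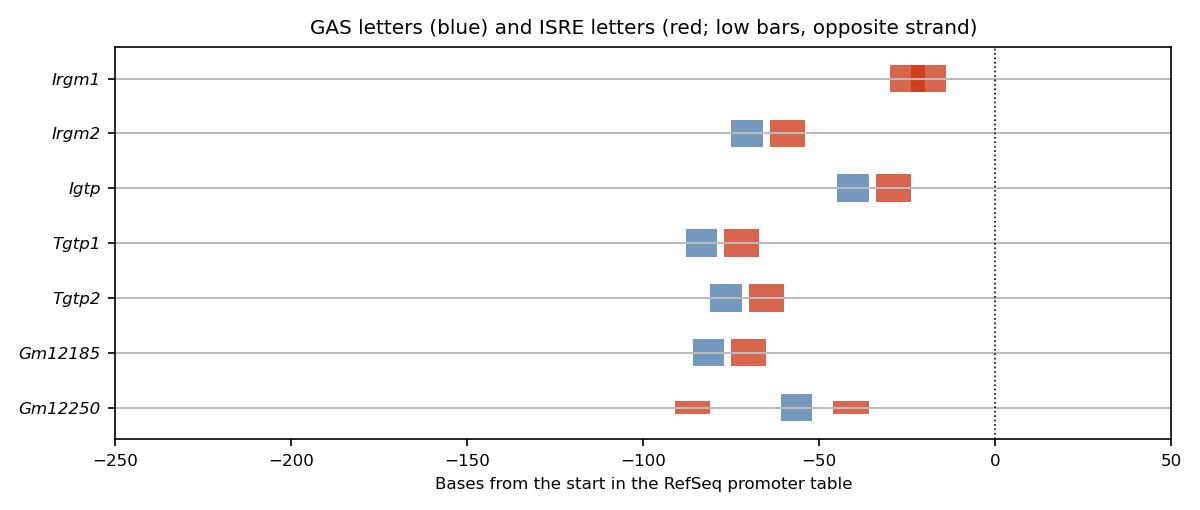
GAS letters (blue) and ISRE letters (red, low bars for the opposite strand) in the promoters of 5 members and 2 family genes with a promoter in the table, by distance in bases from the start that the promoter table gives (dotted line). The blue and red bars are 2 bases apart in Irgm2, Igtp, Tgtp1, Tgtp2 and Gm12185, at distances that run from -88 to -25 bases.

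The libraries were made from poly(A) RNA, and between 17212200 and 28401300 fragments per tumor were recovered from the steps of the low values. Melanocyte markers were high in every tumor, with a mean log2(FPKM + 1) of 7.85 to 8.58 over the 10 genes of the list. Levels of other cell types varied widely: the mean log2(FPKM + 1) ran from 0.0443 to 5.74 for skin epithelium, from 2.32 to 10.2 for erythroid genes and from 0.0674 to 2.44 for neutrophil genes. In a bulk tumor, fewer cells of a type and less RNA per cell cannot be told apart.

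All 6 IRGs were well expressed. Over the 18 tumors Igtp had the highest mean level, 52.0 ± 32.1 FPKM (SD, n = 18), and Irgm1 followed with 44.0 ± 22.6 FPKM. Iigp1 had 28.3 ± 19.9 FPKM, Tgtp2 23.2 ± 13.2 FPKM, Irgm2 22.3 ± 14.3 FPKM and Tgtp1 18.7 ± 13.2 FPKM. Neighbors in this order overlap widely. Within a tumor some orders were fixed: Irgm1 was above Irgm2 and above Iigp1 in 18 of 18 tumors, Tgtp2 was above Tgtp1 in 18 of 18, and Igtp was above Irgm1 in 14 of 18.

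All members varied widely between tumors. The highest tumor had 25.2 times the FPKM of the lowest for Tgtp1, 24.0 times for Iigp1, 14.8 times for Igtp, 11.4 times for Irgm2, 10.6 times for Tgtp2 and 8.07 times for Irgm1. For all 6 genes the highest tumor was PS473@NKMOF-101-[Mn] tumor 2, and the lowest was tumor 1 or tumor 2 of Free PS473. Added over the 6 genes, PS473@NKMOF-101-[Mn] tumor 2 had 560 FPKM, the next tumor, PS473@CPs tumor 3, had 285 FPKM, and the lowest tumors, Free PS473 tumors 2 and 1, had 51.3 and 47.7 FPKM. Markers of other cells differed between these tumors as well. In PS473@NKMOF-101-[Mn] tumor 2 the T and NK cell score, the mean log2(FPKM + 1) of 12 genes, was 1.43, the highest of the 18. Its erythroid score was 2.32, the lowest of the 18, against 8.79 and 8.01 in tumors 1 and 3 of its group. Its skin epithelium score was 3.16, against 0.112 and 0.780. PS473@CPs tumor 3 had a T and NK cell score of 1.01, an erythroid score of 3.68 and a skin epithelium score of 1.94. Their part in the levels was not tested.

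The order of the group means was the same for all 6 genes. It ran from PS473@NKMOF-101-[Mn] through M5@NKMOF-101-[Mn], PS473@CPs, NKMOF-101-[Mn] and PBS to Free PS473. Neighboring groups overlapped in this order for every gene, except PBS and Free PS473 for Irgm1 and Irgm2. The first place rests on tumor 2: by the median of each group, M5@NKMOF-101-[Mn] was above PS473@NKMOF-101-[Mn] for all 6 genes.

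**Figure D2:**
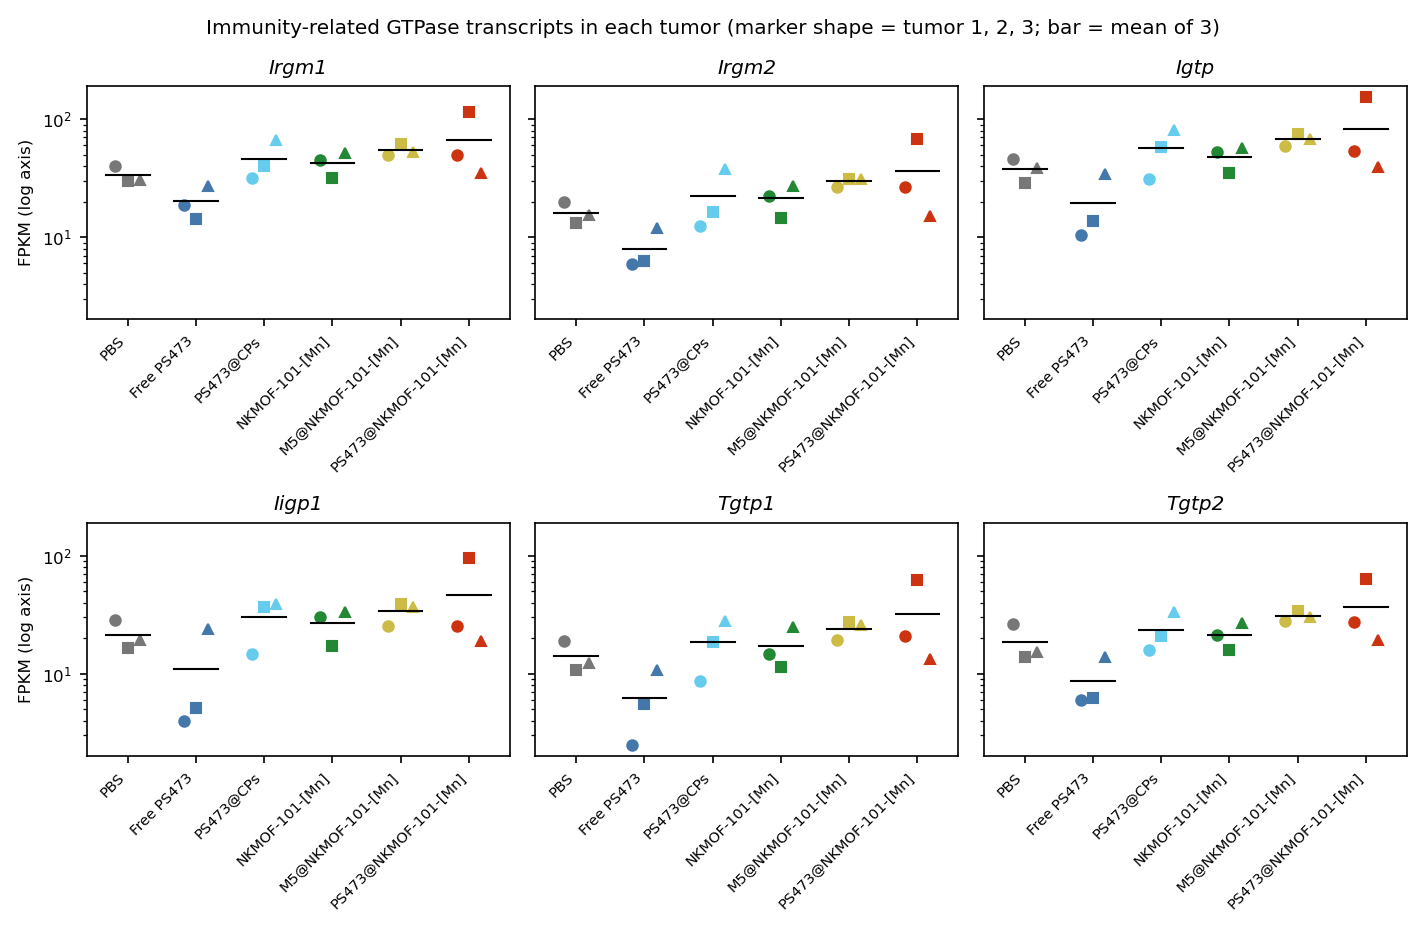
FPKM (log axis) of the 6 IRGs in each of 18 tumors, by group. Marker shapes stand for tumors 1 (circle), 2 (square) and 3 (triangle), and bars for the mean of 3. PS473@NKMOF-101-[Mn] tumor 2 is the highest point in every panel (115 FPKM for Irgm1, 155 FPKM for Igtp), and Free PS473 tumors 1 and 2 are the lowest.

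Among the regulators, Irgm1, which also binds mitochondria and is needed for normal autophagy, had 40.3, 29.7 and 30.2 FPKM in the PBS tumors and 18.8, 14.3 and 27.4 FPKM in the Free PS473 tumors. It had 31.7, 40.0 and 66.2 FPKM with PS473@CPs and 44.8, 31.7 and 51.2 FPKM with NKMOF-101-[Mn]. With M5@NKMOF-101-[Mn] it had 49.8, 61.1 and 53.1 FPKM, and with PS473@NKMOF-101-[Mn] 50.1, 115 and 35.2 FPKM. The Free PS473 tumors were thus below all other tumors, the M5@NKMOF-101-[Mn] tumors were close to each other, and the PS473@NKMOF-101-[Mn] tumors spread from near the PBS tumors to the top of the series.

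Irgm2, a regulator found at the Golgi, had 19.8, 13.1 and 15.4 FPKM in PBS tumors and 5.89, 6.23 and 11.9 FPKM in Free PS473 tumors. PS473@CPs tumors had 12.4, 16.5 and 37.7 FPKM, and NKMOF-101-[Mn] tumors 22.4, 14.5 and 26.9 FPKM. M5@NKMOF-101-[Mn] tumors had 26.8, 31.3 and 31.2 FPKM, and PS473@NKMOF-101-[Mn] tumors 26.4, 67.3 and 15.2 FPKM. As for Irgm1, the 3 Free PS473 tumors were below the other 15, and tumor 3 of PS473@NKMOF-101-[Mn] stood among the PBS tumors.

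Igtp, also called Irgm3, is a regulator at the endoplasmic reticulum. It had 45.6, 28.5 and 38.5 FPKM in PBS tumors and 10.5, 13.8 and 34.2 FPKM in Free PS473 tumors. PS473@CPs tumors had 31.1, 58.5 and 80.7 FPKM, and NKMOF-101-[Mn] tumors 52.5, 35.1 and 56.7 FPKM. M5@NKMOF-101-[Mn] tumors had 59.1, 74.6 and 68.4 FPKM, and PS473@NKMOF-101-[Mn] tumors 53.3, 155 and 39.1 FPKM. Here Free PS473 tumor 3 lay among the PBS tumors, and its group overlapped with them.

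Among the effectors, Iigp1, also called Irga6, coats and breaks the vacuoles of parasites. PBS tumors had 28.7, 16.4 and 19.2 FPKM, and Free PS473 tumors 3.97, 5.11 and 23.8 FPKM. PS473@CPs tumors had 14.7, 36.6 and 39.2 FPKM, and NKMOF-101-[Mn] tumors 29.9, 17.2 and 33.4 FPKM. M5@NKMOF-101-[Mn] tumors had 25.3, 39.1 and 37.0 FPKM, and PS473@NKMOF-101-[Mn] tumors 25.5, 95.5 and 18.9 FPKM. Its Free PS473 tumors were the most divided of the family, with tumor 3 inside the PBS range, and Free PS473 and PS473@NKMOF-101-[Mn] overlapped for this gene alone.

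Tgtp1 and Tgtp2 encode the effector Irgb6. Tgtp1 had 19.1, 10.8 and 12.3 FPKM in PBS tumors and 2.47, 5.55 and 10.8 FPKM in Free PS473 tumors. PS473@CPs tumors had 8.73, 18.7 and 28.2 FPKM, and NKMOF-101-[Mn] tumors 14.8, 11.5 and 25.1 FPKM. M5@NKMOF-101-[Mn] tumors had 19.3, 27.4 and 25.7 FPKM, and PS473@NKMOF-101-[Mn] tumors 20.8, 62.4 and 13.4 FPKM. PS473@NKMOF-101-[Mn] tumor 2 stood alone at the top, above PS473@CPs tumor 3, the next highest.

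Tgtp2 had 26.4, 13.7 and 15.4 FPKM in PBS tumors and 6.04, 6.26 and 13.9 FPKM in Free PS473 tumors. PS473@CPs tumors had 16.0, 20.9 and 33.1 FPKM, and NKMOF-101-[Mn] tumors 21.1, 15.8 and 27.0 FPKM. M5@NKMOF-101-[Mn] tumors had 27.9, 34.1 and 29.9 FPKM, and PS473@NKMOF-101-[Mn] tumors 27.2, 64.0 and 19.2 FPKM. The ratio of Tgtp2 to Tgtp1 ran from 1.03 in the tumor with the highest levels to 2.44 in Free PS473 tumor 1. The recovered fragments of Tgtp1 were whole numbers, to within 0.01, in 6 of 18 tumors and those of Tgtp2 in 7. How fragments that fit both copies were counted is not given in the sources used here, so the split between them is uncertain.

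Differences between groups were tested with limma on log2(FPKM + 1), with 1 mean per group and all 18 tumors in the fit, and a call needed a Benjamini-Hochberg adjusted p under 0.05 together with a log2 fold change beyond 1 in size. No member was called in any of the 9 comparisons of single groups, where 0% of the 12357 genes were called. Group means on the log2(FPKM + 1) scale therefore stand here with their intervals, and counts at an unadjusted p under 0.05 are given beside the share of all genes that reach it. Comparisons with PS473@NKMOF-101-[Mn] share its 3 tumors, and those with PBS share the 3 PBS tumors, so they are not independent of each other.

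The widest gap in the family was between PS473@NKMOF-101-[Mn] and Free PS473. The difference in mean log2(FPKM + 1) was 1.55 ± 0.37 (SE) for Irgm1, 1.85 ± 0.46 for Irgm2, 1.94 ± 0.48 for Igtp, 2.03 ± 0.62 for Iigp1, 2.07 ± 0.54 for Tgtp1 and 1.87 ± 0.41 for Tgtp2. These are 2.93-fold to 4.20-fold higher values on the FPKM + 1 scale. An unadjusted p under 0.05 was reached by 6 of 6 members in the higher direction, against 2.11% of all genes (261 of 12357), and Tgtp2 (unadjusted p = 0.00038, limma) had rank 2 of all genes in the order of p. The adjusted p of all 6 was 0.781. For 5 members, all but Iigp1, every PS473@NKMOF-101-[Mn] tumor was above every Free PS473 tumor, against 2.34% of all genes. Over the 6 members the median difference was 1.91, against -0.04 over all genes tested. Without PS473@NKMOF-101-[Mn] tumor 2 the differences were 1.07 to 1.46, still with an unadjusted p under 0.05 for 6 members.

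Part of that gap lay between Free PS473 and PBS. Members were lower with Free PS473 by 0.73 (Irgm1) to 1.26 (Iigp1) on the log2 scale, where the fitted differences were -0.73 ± 0.37 (SE) and -1.26 ± 0.62. Of the 6, Igtp (-1.06), Tgtp1 (-1.18) and Tgtp2 (-1.04) had an unadjusted p under 0.05, against 0.55% of all genes in the lower direction, and the adjusted p of every member was 1.00 in limma. That count was 0 without Free PS473 tumor 1, without Free PS473 tumor 2 or without PBS tumor 1, 1 without PBS tumor 3 and 6 without Free PS473 tumor 3. For Irgm1 and Irgm2 all Free PS473 tumors lay below all PBS tumors, as for 1.54% of genes. The T and NK cell score was 0.146 to 0.535 in Free PS473 tumors, 0.509 to 0.681 in PBS tumors and 0.495 to 1.43 in PS473@NKMOF-101-[Mn] tumors; its part in these differences was not tested. All 12 genes were in the table, none was at 0 in every tumor, and 4 had a mean of at least 1 FPKM.

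Against PBS, the members were higher with PS473@NKMOF-101-[Mn] by 0.76 (Iigp1) to 0.89 (Irgm2 and Tgtp1) in mean log2(FPKM + 1). Irgm1, at 0.82 with a 95% confidence interval of 0.03 to 1.60, was the 1 member with an unadjusted p under 0.05, which 1% of genes reached in the higher direction, and the adjusted p was 0.993 for all 6. These differences rest on tumor 2 of PS473@NKMOF-101-[Mn]: without it they were 0.07 (Iigp1) to 0.35 (Tgtp2), with 0 members at an unadjusted p under 0.05, and without tumor 3 they were 1.18 to 1.36, with 5. With the inactive ribozyme in the framework, M5@NKMOF-101-[Mn], the differences from PBS were 0.65 (Iigp1) to 0.86 (Irgm2), and they stayed between 0.48 and 1.02 with any 1 tumor left out. For M5@NKMOF-101-[Mn] all 3 tumors were above all PBS tumors in 5 members, again all but Iigp1, against 4.75% of all genes, and 0 members had an unadjusted p under 0.05 in the higher direction (0.834% of genes had). Its smaller spread is visible in Irgm2, at 29.7 ± 2.57 FPKM (SD, n = 3) against 36.3 ± 27.4 FPKM in PS473@NKMOF-101-[Mn].

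The framework alone and the polymer carrier gave smaller differences from PBS, which moved with single tumors. NKMOF-101-[Mn] was above PBS by 0.22 (Tgtp2) to 0.36 (Irgm2) in mean log2(FPKM + 1), and PS473@CPs by 0.28 (Tgtp1) to 0.51 (Igtp). The intervals reach from -1.03 to 1.62 for Iigp1 with NKMOF-101-[Mn] and from -0.93 to 1.72 for Iigp1 with PS473@CPs, so the direction for Iigp1 could not be told at this spread. Without tumor 3 of the group the differences were -0.06 to 0.21 for NKMOF-101-[Mn] and -0.14 to 0.21 for PS473@CPs. No member reached an unadjusted p under 0.05 in either comparison, where 1.15% and 0.898% of genes did in the higher direction.

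The active and the inactive ribozyme in the same framework, PS473 and M5, were compared at the same schedule. Their mean log2(FPKM + 1) differed by 0.03 (Irgm2) to 0.12 (Tgtp1) over the 6 members. The 95% confidence interval of the difference was -0.67 to 0.90 for Irgm1, -0.96 to 1.01 for Irgm2, -0.998 to 1.07 for Igtp, -1.21 to 1.44 for Iigp1, -1.03 to 1.28 for Tgtp1 and -0.79 to 0.95 for Tgtp2. These intervals hold differences of up to about 1 in both directions, and do not show that the ribozymes act alike. The sign depends on single tumors: without PS473@NKMOF-101-[Mn] tumor 2 all 6 differences were negative, from -0.37 (Irgm1) to -0.58 (Iigp1), and without M5@NKMOF-101-[Mn] tumor 1 they were negative for 4 of 6, from -0.08 to 0.05 in all. No member had an unadjusted p under 0.05, where 0.267% of genes had in the higher direction.

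Against the other carriers the members were higher with PS473@NKMOF-101-[Mn] by 0.37 (Igtp and Iigp1) to 0.61 (Tgtp1) than with PS473@CPs, and by 0.47 (Iigp1) to 0.65 (Tgtp1) than with NKMOF-101-[Mn]. None had an unadjusted p under 0.05, where 1% and 0.502% of genes did in the higher direction. Here too tumor 2 decided the sign for several members: without it, the difference from PS473@CPs was -0.06 for Irgm1, -0.21 for Igtp, -0.32 for Iigp1 and near 0 for Tgtp1, and that from NKMOF-101-[Mn] was -0.04 for Irgm2, -0.04 for Igtp and -0.22 for Iigp1.

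**Figure D3:**
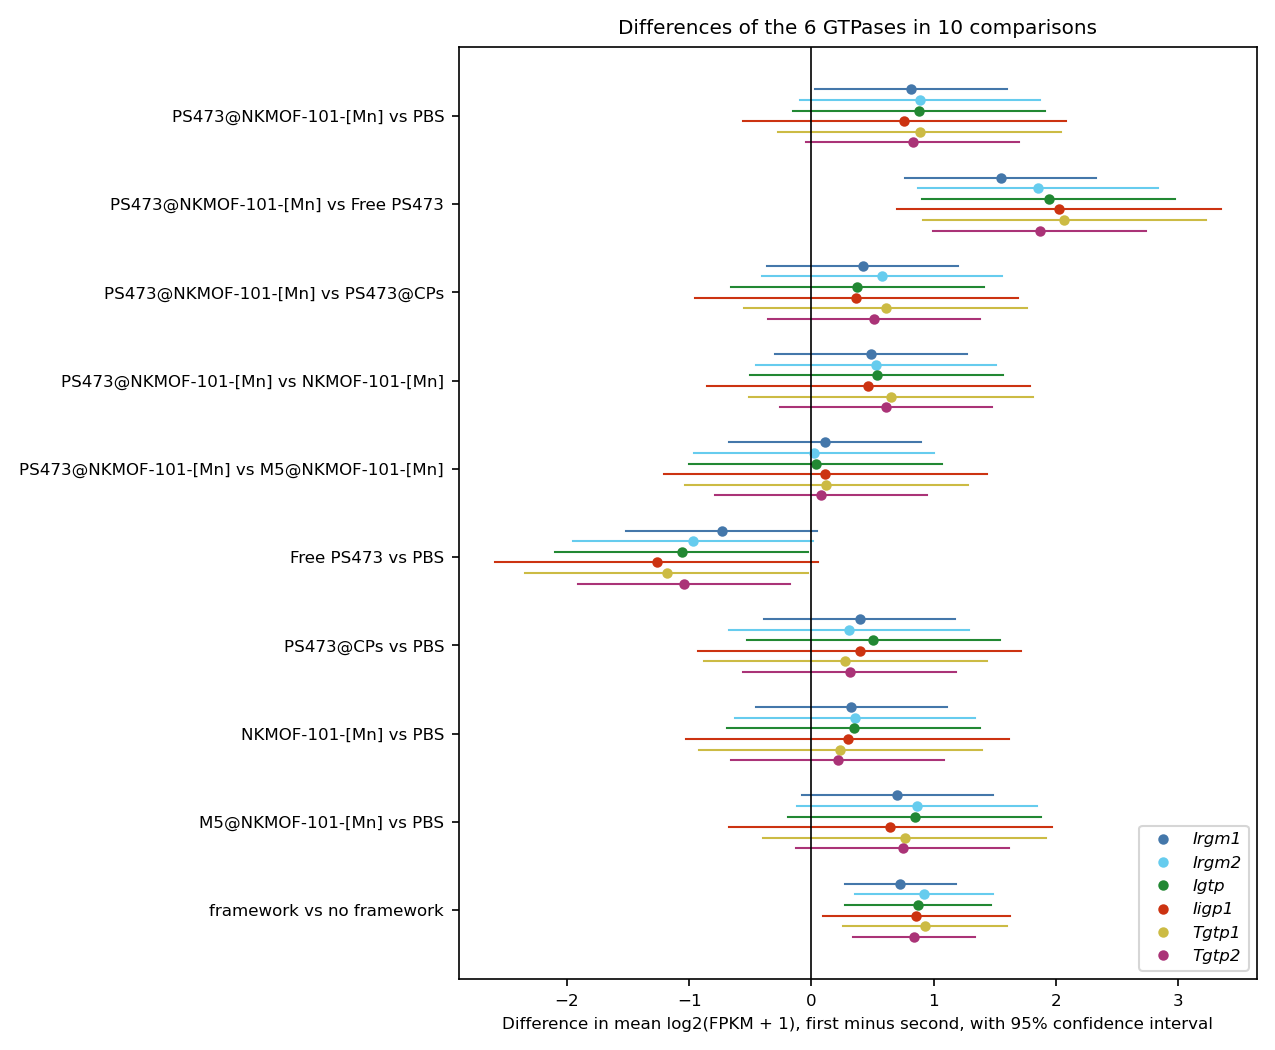
Difference in mean log2(FPKM + 1), first group minus second, for the 6 IRGs (colors) in 10 comparisons, with the 95% confidence interval of the limma fit as a line. The intervals of all 6 genes lie above 0 against Free PS473 and between framework and no framework, while those against M5@NKMOF-101-[Mn] are centered between 0.03 and 0.12.

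When the 9 tumors that received the framework were set against the 9 that did not, every member had a higher mean in the framework tumors. The sides also differed in cargo and carrier. Without the framework, Free PS473 and PS473@CPs held the active ribozyme, and with it PS473@NKMOF-101-[Mn] alone. The inactive ribozyme was given only with the framework, and the polymer only without it. In this contrast the framework cannot be told apart from these. Irgm1 ran from 31.7 to 115 FPKM (median 50.1) in framework tumors and from 14.3 to 66.2 FPKM (median 30.2) in the others, and Iigp1 from 17.2 to 95.5 FPKM (median 29.9) and from 3.97 to 39.2 FPKM (median 19.2). The ranges overlapped for all members, and PS473@CPs tumor 3 was the highest of the tumors without the framework. On the log2(FPKM + 1) scale the difference was 0.73 ± 0.21 (SE) for Irgm1, 0.92 ± 0.27 for Irgm2, 0.88 ± 0.28 for Igtp, 0.86 ± 0.36 for Iigp1, 0.93 ± 0.31 for Tgtp1 and 0.84 ± 0.23 for Tgtp2. All 6 had an unadjusted p under 0.05 in the higher direction, against 2.93% of all genes (362 of 12357), but at an adjusted p of 0.90 none passed an adjusted threshold of 0.05, as for 0% of genes. Two-sided exact permutation tests over the 9 and 9 tumors gave p = 0.0132 for Irgm1, 0.0118 for Irgm2, 0.0245 for Igtp, 0.0629 for Iigp1, 0.0243 for Tgtp1 and 0.015 for Tgtp2, with no adjustment.

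The contrast drew on the low Free PS473 tumors. With that group left out, a choice made after the data were seen, framework tumors were above PBS and PS473@CPs by 0.37 (Iigp1) to 0.55 (Irgm2), and the intervals included 0 for all 6 (for Irgm2, -0.08 to 1.18). No cell type marker was called between the sides. An unadjusted p under 0.05 in the higher direction was reached by 1 of 4 T and NK cell genes tested, 2 of 11 macrophage genes, 2 of 10 melanocyte genes and 1 of 1 B cell gene, against the same 2.93% of all genes. Of 7 neutrophil genes only S100a8 and S100a9 were tested, with a median difference of -2.02, and Ly6g was at 0 in all 18 tumors. The neutrophil score was highest in PBS tumor 2 (2.44) and PS473@CPs tumor 2 (2.40), where the skin epithelium score was 4.99 and 5.74. The T and NK cell score was 0.495 to 1.43 in framework tumors and 0.146 to 1.07 in the others, and the macrophage score (12 genes, all in the table and none at 0 in every tumor) 2.99 to 4.55 and 2.33 to 4.32, so the ranges overlapped. Their part in the result was not tested.

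A test of any difference among the 6 groups, limma's F test, gave the same picture for the family. The unadjusted p was under 0.05 for 5 of 6 members, against 1.99% of all genes (246 of 12357), and Tgtp2 stood 11th and Irgm1 29th in the order of all genes. Iigp1 did not reach it, at rank 275. No gene passed after adjustment (0%), and the adjusted p of every member was 1.00.

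The members moved together from tumor to tumor. Over 15 pairs and 18 tumors, Pearson's r of log2(FPKM + 1) ran from 0.930 to 0.986 with a median of 0.970, and Spearman's rho from 0.889 to 0.983. The permutation p was 1e-05 for each pair, the smallest that 100000 permutations can give, and it stayed 1e-05 after Benjamini-Hochberg adjustment over the 15 pairs. When the pair of tumors farthest from the median of the first gene was left out, r was 0.864 to 0.985. Within groups, after the mean of each group was taken away, r was still 0.877 to 0.979 with a median of 0.938. Genes of a pair share the library and, for Tgtp1 and Tgtp2 or Igtp and Irgm2, some of their sequence or position.

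Ratios within the family were steadier than levels. Irgm1 was 1.70 to 3.20 times Irgm2, both of the regulatory class. Irgm1 was 1.09 to 4.74 times Iigp1, and this ratio of a regulator to an effector was most uneven in Free PS473, where it was 4.74, 2.80 and 1.15 in tumors 1 to 3. In PBS tumors it was 1.40, 1.81 and 1.57, and in PS473@NKMOF-101-[Mn] tumors 1.96, 1.21 and 1.86. Apart from Free PS473 the group means of the ratio were 1.60 to 1.68.

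The 10 genes outside the 6 whose log2(FPKM + 1) was most like the mean z-score of the family over the 18 tumors included, in order, Gbp6, Gm12250, Zbp1, Gbp3, Gbp7, Iigp1c, Gm4841, Tap1 and Ifi47. Pearson's r ran from 0.986 (Gbp6) to 0.972 (Ifi47), and 69 of 12351 genes were above 0.9. Gbp6, Gbp3 and Gbp7 are guanylate-binding proteins, larger interferon-induced GTPases. Tap1 carries peptides to MHC class I, and Zbp1 senses Z-form nucleic acids. These are descriptions of likeness over tumors that share libraries, with no test.

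Other rows of the family were weaker in level. Of 20 further symbols, 10 were in the table and 5 averaged 1 FPKM or more: Gm12250, Irgq, Iigp1c, Gm4841 and Gm12185, at 9.28, 5.35, 2.60, 2.04 and 1.96 FPKM. Of these, 4 followed the members, with differences between PS473@NKMOF-101-[Mn] and Free PS473 of 1.78 for Gm12250, 1.43 for Gm12185, 1.39 for Iigp1c and 1.25 for Gm4841 in mean log2(FPKM + 1) and an unadjusted p under 0.05 each (2.11% of all genes). Irgq, a distant relative, stayed at 4.05 to 7.28 FPKM in all tumors, with a difference of -0.05 ± 0.16 (SE). Irgc, the testis member, was at 0 in 12 of 18 tumors and at most at 0.0561 FPKM. Ifi47, which belongs to the family under the name Irgd and was added after its values were seen, had a mean of 31.9 FPKM and was highest in PS473@NKMOF-101-[Mn] tumor 2 (77.6 FPKM) and lowest in Free PS473 tumor 2 (9.31 FPKM).

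The guanylate-binding proteins, which join the IRGs on vacuoles, followed the same tumors. Over the 8 that were tested, r with the mean z-score of the family was 0.911 to 0.986. Counts of them are therefore not independent of the counts of members. All 8 that were tested were higher in PS473@NKMOF-101-[Mn] than in Free PS473, all 8 with an unadjusted p under 0.05 (2.11% of all genes) and none called, at a median difference of 1.59, where the median over all genes was -0.04. Between framework and no framework 7 of 8 had an unadjusted p under 0.05 in the higher direction (2.93% of all genes), at a median difference of 0.74. Gbp2, the most abundant, had a mean of 44.5 FPKM and a difference from Free PS473 of 1.68 ± 0.55 (SE), and Gbp10 1.41 ± 0.47.

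Among the genes of interferon signaling, the ligand gene was scarce. Ifng, which encodes interferon gamma, was at 0.0809 to 1.38 FPKM. It was highest in PS473@NKMOF-101-[Mn] tumor 2 (1.38 FPKM), followed by PS473@CPs tumor 2 (1.20 FPKM) and M5@NKMOF-101-[Mn] tumor 2 (0.863 FPKM). The type I interferon genes Ifna2 and Ifna4 were listed at 0 in all 18 tumors, and Ifnb1 at 0 in 11. The receptor genes Ifngr1 and Ifngr2 and the kinase genes Jak1 and Jak2 differed between PS473@NKMOF-101-[Mn] and Free PS473 by -0.24 to 0.12. Irf1, a transcription factor that binds the ISRE, differed by 1.01 ± 0.37 (SE). Of the 9 genes of the interferon gamma list that were tested, 3 had an unadjusted p under 0.05 in the higher direction and 0 in the lower, and of the 8 tested in the type I list 3 and 0, against 2.11% of all genes in the higher direction and 2.86% in the lower. These are counts in the comparison of PS473@NKMOF-101-[Mn] with Free PS473, with no gene called.

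Relations of the 6 members with 18 measures over the 18 tumors, 108 in all, were then computed and adjusted together. Of these measures Irf1 had the highest r with Igtp, Iigp1, Tgtp1 and Tgtp2 (for Tgtp2 0.940, against 0.938 for Irf9). Irf9 had the highest with Irgm1 (0.959, against 0.941 for Irf1) and Irgm2 (0.950, against 0.939). Over the 6 members Irf1 gave r of 0.939 to 0.975, rho of 0.868 to 0.953 and an adjusted permutation p of r of 4.7e-05 for every member. Without the pair of tumors farthest from the median, r was 0.874 to 0.956, and within groups 0.915 to 0.965. With such a pair left out, r was 0.847 to 0.937 for Stat2 and 0.771 to 0.915 for Irf9. In that version both were above Irf1 for Irgm1, Irgm2 and Tgtp2, and below it for Igtp, Iigp1 and Tgtp1. Ifng itself was less close, with r of 0.507 to 0.635 (adjusted permutation p 0.0154 to 0.0634) and rho of 0.379 to 0.562 (adjusted permutation p 0.0357 to 0.212), and r without 2 tumors was 0.390 to 0.464. Its low FPKM limits this comparison. Irf9 (r 0.888 to 0.959), Stat2 (0.838 to 0.902) and Irf7 (0.789 to 0.874) of the type I pathway had an adjusted permutation p of r of at most 0.000554.

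Of the cell type scores, that of T and NK cells was the closest to the members, with r of 0.817 to 0.894 and rho of 0.651 to 0.792 (adjusted permutation p of r at most 0.000262). Without the pair of tumors farthest from the median r was 0.652 to 0.806. The B cell score followed, with r of 0.655 to 0.705 and rho of 0.587 to 0.686 (adjusted permutation p of r 0.00342 to 0.00792). Macrophage markers gave r of 0.372 to 0.563 and melanocyte markers 0.189 to 0.421. Skin epithelium, erythroid, fibroblast, neutrophil and endothelium scores gave r between -0.329 and 0.408, with an adjusted permutation p of 0.171 or more. Recovered fragments gave r of -0.081 to 0.006 (adjusted permutation p 0.823 or more). A list of 14 autophagy genes held those of conjugation, through which IRGs are kept off the cell's own membranes and placed on vacuoles. It also held Sqstm1, Becn1 and Ulk1, which are autophagy genes outside conjugation. The score of the 14 gave r of 0.018 to 0.164 (adjusted permutation p 0.637 or more). Differences of the 14 genes between PS473@NKMOF-101-[Mn] and Free PS473 ran from -0.24 to 0.23.

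**Figure D4:**
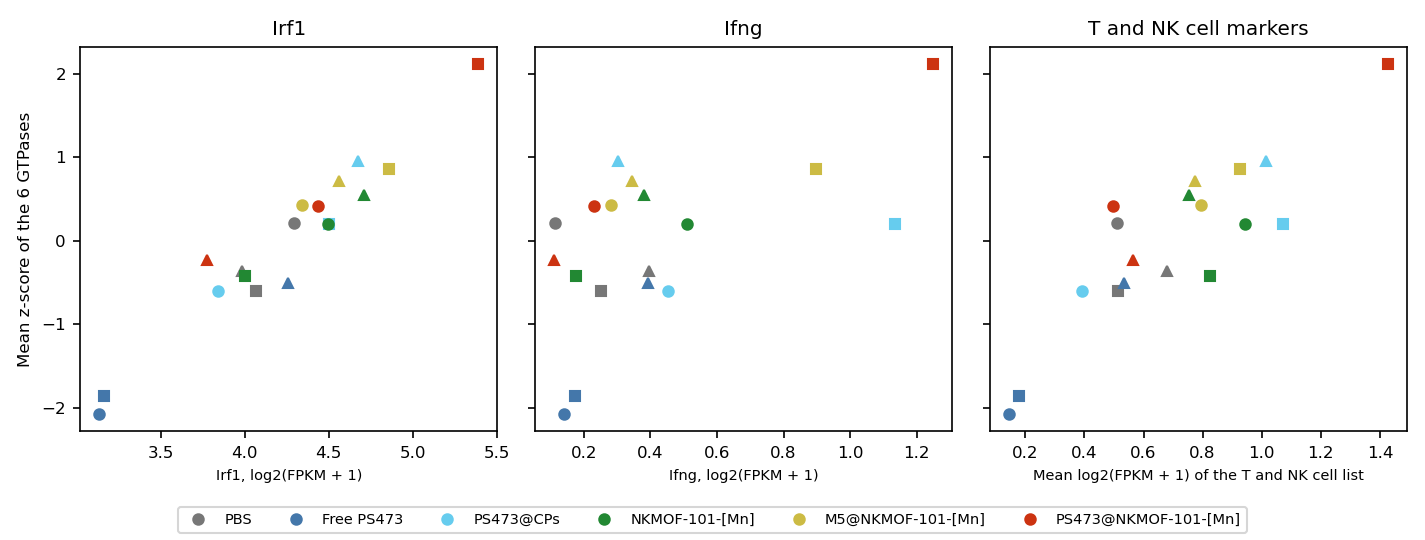
Mean z-score of the 6 IRGs in each of 18 tumors (y axis) against log2(FPKM + 1) of Irf1 and Ifng and against the mean log2(FPKM + 1) of 12 T and NK cell markers (x axes). Colors stand for groups and marker shapes for tumors 1 (circle), 2 (square) and 3 (triangle). PS473@NKMOF-101-[Mn] tumor 2 is at the upper right and Free PS473 tumors 1 and 2 at the lower left of each panel, and the points follow a line for Irf1 more closely than for Ifng.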

How the data were processed

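Poly(A) RNA of 18 tumors was measured, 3 in each of 6 groups taken from the sample titles. The authors deposited FPKM values for 41079 genes with 1 length per gene. The submitters' processing notes list GRCm39, and the aligner, counter and annotation are not given in the sources used here. FPKM times length summed to the same total in every tumor, and fragments (17212200 to 28401300 per tumor) were recovered from the steps of low values. Because 48.7% to 55.8% of low values were whole, within 0.01, no count model was used. Each member had at least 139.75 fragments in every tumor.

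The values were taken as log2(FPKM + 1) and filtered at a mean of 1 FPKM, which left 12357 genes. They were fitted with limma 3.58.1 in R 4.3.3 with a trend and Benjamini-Hochberg adjustment over all genes of a comparison. Correlations, exact tests and sequence searches used Python 3.11.15, numpy 2.4.6, scipy 1.17.1, pandas 2.3.3 and Biopython 1.88. The fit was tested on simulated data.

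The 6 members and all lists were chosen with earlier results of these data known. The rule named the members, up to 4 genes of each list and the 10 genes most alike the family mean, and Ifi47 and the list genes named beyond 4 were chosen after their values were seen. The values of 1 gene, which is in the interferon lists and among those 10, are not reported here; it is in the counts of its lists. Sequences and positions came from GENCODE M21 (GRCm38) and RefSeq (GRCm38.p6), matched by symbol. Alternatives were another pseudocount (0.1), no filter or one at 0.1 FPKM, quantile and upper-quartile scaling, no trend, the compared groups alone, a replicate block and each tumor left out. Raw reads and other assays were not analysed here.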

Additional observations from a re-analysis of the deposited data

Results flagged for a closer look

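Samples far from the rest of their set were looked for with Dixon's ratio (the gap to the nearest sample over the whole range) in the 9 framework tumors and in the 9 tumors without the framework, since groups of 3 are too small for it. Dixon's 95% critical value is passed by chance in about 1 of 20 sets, and 24 sets were examined for the 6 genes on both scales. PS473@NKMOF-101-[Mn] tumor 2 was the highest framework tumor and passed for all 6 members in FPKM, with ratios of 0.649 for Irgm1, 0.683 for Irgm2, 0.671 for Igtp, 0.720 for Iigp1, 0.686 for Tgtp1 and 0.621 for Tgtp2. On the log2(FPKM + 1) scale it passed for Irgm1 (0.495), Irgm2 (0.506), Igtp (0.495) and Iigp1 (0.525). Since the genes are correlated, these are 1 observation about 1 tumor. PS473@CPs tumor 3, the highest tumor without the framework, passed in FPKM for Irgm1 (0.499) and Irgm2 (0.564). The T and NK cell, erythroid and skin epithelium scores of these tumors are given with their levels, and their part was not tested.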

How the results depend on the processing

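The counts of members called were 0 in the 10 comparisons and the F test under every limma setting run, 1 tumor left out included. The exact permutation test, which is not adjusted over genes, gave p under 0.05 for 5 of 6 members between framework and no framework, where the adjusted limma p of 0.90 gave none. Leaving out 1 tumor at a time turned the sign of some differences in mean log2(FPKM + 1), all of them small, and their ranges follow. For PS473@NKMOF-101-[Mn] vs M5@NKMOF-101-[Mn] they were -0.37 to 0.48 for Irgm1, -0.54 to 0.50 for Irgm2, -0.54 to 0.44 for Igtp, -0.58 to 0.56 for Iigp1, -0.49 to 0.58 for Tgtp1 and -0.40 to 0.44 for Tgtp2. For PS473@NKMOF-101-[Mn] vs PS473@CPs they were -0.059 to 0.78 for Irgm1, -0.21 to 0.77 for Igtp, -0.32 to 0.82 for Iigp1 and -0.0041 to 1.07 for Tgtp1. For PS473@NKMOF-101-[Mn] vs NKMOF-101-[Mn] they were -0.037 to 1.00 for Irgm2, -0.045 to 0.94 for Igtp and -0.22 to 0.91 for Iigp1. For PS473@CPs vs PBS they were -0.14 to 0.62 for Irgm2 and -0.081 to 0.71 for Tgtp1, and for NKMOF-101-[Mn] vs PBS -0.064 to 0.47 for Tgtp1. In all, 21 of 432 values with 1 tumor left out changed sign, and 0 of 486 under the other settings did. Many of the 486 could not change. The filters, the trend, the block, the fit of the compared groups alone and the exact test leave these differences of group means unchanged. Against Free PS473 the 6 differences ran from 1.07 to 2.75 with 1 tumor left out, and between framework and no framework from 0.57 to 1.10.

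The median correlation of the members was 0.960 to 0.975 with 1 tumor left out, and 0.938 with group means removed; the cause was not tested. With each replicate number once in every group, a replicate block cannot move the differences, and no member was called with it. Tumors of the same number had a median r of -0.02 over 45 pairs of tumors (range -0.73 to 0.72), and those of other numbers -0.01 over 90 pairs. A median near 0 with so wide a range cannot tell whether some tumors shared a day or a cage. With 3 tumors a group, differences under about 1 on the log2 scale were within the intervals of most members.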
